A study of Mus musculus with 16 samples.

Results

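The *Slc24a3* calcium exchanger was examined with 9 further genes of calcium transport across cell membranes and its regulation. The cells were cultured neural stem and progenitor cells (NSPCs) that constitutively expressed *Dbx2*, a homeobox transcription factor gene. These 10 genes were taken by symbol from the 30386 genes of the deposited expression table: *Slc24a3*, *Slc8a1*, *Slc8b1*, *Atp2b1*, *Atp2b2*, *Atp2b4*, *Atp2a2*, *Itpr1*, *Itpr2* and *Stim1*. They were selected on the measured difference in level between the transgenes, with that contrast in view, so their values in it are given as a description, without a test.

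The 16 samples were RNA from non-adherent cultures of proliferating NSPCs, which grow as neurospheres, from the subventricular zone (SVZ) of C57BL/6 J/Babr mice 3 months old. In 8 samples the cells carried a *Dbx2* transgene (*Dbx2*-NSPCs), and in 8 control samples a *GFP* transgene (*GFP*-NSPCs). Per the study's methods, plasmids had been introduced by nucleofection, all cells of both groups were selected and kept in puromycin, and both pairs of lines, from separate derivations, were bulk cultures, with repeated culture experiments as replicates. The labels number the replicates of either group from 1 to 8 and do not name the line. The fits below treat repeated cultures of the same lines as independent samples. Their p-values measure the spread between these samples, which may be partly technical. They do not measure how a difference would vary over further, separately derived lines.

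Cells keep calcium ions scarce in the cytosol and store them in the endoplasmic reticulum (ER), and brief releases or entries of calcium act as signals that enzymes and transcription factors read. Pumps driven by ATP and exchangers driven by the sodium gradient remove calcium from the cytosol, IP3 receptors release it from the ER, and STIM proteins sense an emptied ER and open Orai channels at the cell surface. In neural stem cells of the SVZ, calcium signals are known to take part in the choice between quiescence and division.

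Levels are in CPM, the reads of a gene scaled to the same total of reads on genes in every sample. The reads lie near the poly-A end of the transcript. The samples held 1803928 to 3293285 reads, so 3 reads, taken here as the floor of detection, were 0.911 to 1.66 CPM. *Dbx2* itself averaged 77.2 ± 51.8 CPM in the controls and 155 ± 35.4 CPM with the transgene (SD, n = 8 per group), a log2 difference of 1.26 (SE 0.317; limma adjusted p = 0.00978), higher in *Dbx2*-NSPCs at all 8 replicate numbers. The groups overlapped, from 30.67 to 171.22 CPM against 114 to 232.13 CPM, and the table does not separate transgene reads from endogenous ones. In replicates 1 to 4 alone the difference was 0.54 and did not pass (limma adjusted p = 0.0891). In replicates 5 to 8 alone it was 1.99 and passed (limma adjusted p = 5.67e-08). Of the 11 markers of NSPCs 5 fell in limma, and 0 rose in limma, edgeR or DESeq2, also by an unadjusted p under 0.05 (those that fell were *Pax6*, *Msi1*, *Egfr*, *Fabp7*, *Slc1a3*, and with the replicate block *Sox2* too), with summed levels of 7333 to 8840 CPM in the controls and 6160 to 7503 CPM in the *Dbx2*-NSPCs. Of 7 astrocyte markers, *Gfap* and *Aldoc* rose and *Aldh1l1* and *Gja1* fell, and their sums ran from 459 to 1204 CPM and from 793 to 1074 CPM. The 5 microglial markers summed to at most 1.84 and 1.96 CPM, and *Aif1* and *Tmem119* were at 0 in every sample. Of 4 endothelial markers *Cldn5* and *Cdh5* were at 0, while *Flt1* rose from 1.18 ± 0.874 to 6.84 ± 2.65 CPM without overlap (limma adjusted p = 3.47e-04), and the sums were 0 to 2.39 and 3.58 to 10.56 CPM. Of 3 ependymal markers *Tmem212* was at 0, *Ccdc153* rose from 1.43 to 5.41 CPM (limma adjusted p = 0.0102) and *Foxj1* was at 12.8 and 19.97 CPM (limma adjusted p = 0.104, and 0.0307 with the replicate block), with sums of 9.56 to 21.35 and 14.35 to 34.67 CPM. Of 7 neuronal markers *Map2* fell and *Stmn2* was at 0, with sums of 840 to 1294 and 706 to 906 CPM. *Map2* alone averaged 1053 and 751 CPM. Over all samples the low *Dcx* and *Rbfox3* did not pass, but their contrasts had opposite signs in replicates 1 to 4 and 5 to 8. The log2 differences were -2.87 and 3.02 for *Dcx*, and -1.96 and 2.90 for *Rbfox3* (limma adjusted p of the interaction = 3.26e-07 and 3.90e-06). Of the oligodendrocyte lineage *Mog* was at 0, and the sums were 13.16 to 47.32 and 10.21 to 76.06 CPM. The pericyte and fibroblast markers summed to at most 2.05 and 5.78 CPM. The part of these markers in the differences below was not tested. In RNA from whole cultures, fewer cells with a transcript and less of it per cell cannot be told apart.

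RefSeq promoters of the GRCm38.p6 assembly, from 250 bases before to 50 after a transcription start, were at hand for 7 of the 10 genes, as 11 promoters. Those of the 3 genes that passed the threshold between the transgenes are shown, each on the plus strand, with the 50 bases after the start in capitals.
*Slc24a3*, chr2:145167525-145167824: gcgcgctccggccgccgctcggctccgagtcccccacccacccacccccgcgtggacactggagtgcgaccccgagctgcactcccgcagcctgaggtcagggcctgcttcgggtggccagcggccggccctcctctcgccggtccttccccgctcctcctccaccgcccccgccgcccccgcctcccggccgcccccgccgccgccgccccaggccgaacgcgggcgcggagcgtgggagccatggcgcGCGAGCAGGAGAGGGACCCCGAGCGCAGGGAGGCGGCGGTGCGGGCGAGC
*Atp2b1*, chr10:98914392-98914691: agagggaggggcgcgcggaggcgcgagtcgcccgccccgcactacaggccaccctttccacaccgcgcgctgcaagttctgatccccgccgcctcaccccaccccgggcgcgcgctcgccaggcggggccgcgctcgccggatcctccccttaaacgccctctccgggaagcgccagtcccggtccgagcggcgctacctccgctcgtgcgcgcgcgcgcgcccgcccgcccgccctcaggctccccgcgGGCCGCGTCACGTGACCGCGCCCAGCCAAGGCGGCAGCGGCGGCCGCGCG
*Stim1*, chr7:102267569-102267868: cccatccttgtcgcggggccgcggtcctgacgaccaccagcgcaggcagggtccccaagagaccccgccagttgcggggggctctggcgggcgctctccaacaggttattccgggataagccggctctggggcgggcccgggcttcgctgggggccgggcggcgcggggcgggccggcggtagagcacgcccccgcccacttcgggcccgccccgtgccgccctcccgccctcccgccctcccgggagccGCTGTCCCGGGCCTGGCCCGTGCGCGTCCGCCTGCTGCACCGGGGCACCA
The 3 sequences were rich in G and C, at 80.7%, 79.3% and 78.7%, against a median of 52.7% over all 32851 mouse promoters of the same length. A second *Slc24a3* promoter, at chr2:145242361-145242660, held 63.7% G and C, and a second of *Atp2b1*, at chr10:98914902-98915201, held 79.3%. Of the other members, the promoter of *Itpr2* held 73.3%, that of *Slc8a1* 50.7% and that of *Atp2b4* 47.7%. Those of *Atp2b2* held 54% to 72.7%. The letters TAATTA, a core that many homeodomain proteins bind and that reads the same on both strands, were in 0 of the 11 promoters and in 5.29% of all promoters. This says only that these letters are not in these windows.

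*Slc24a3* encodes a plasma membrane exchanger that takes in sodium and moves calcium out together with potassium. The gene (ENSMUSG00000063873) lies on the plus strand of chromosome 2, from 145167754 to 145642166 (GRCm38). In *GFP*-NSPCs it was at 4.03, 4.94, 2.61, 3.00, 7.76, 13.80, 16.39 and 8.64 CPM in replicates 1 to 8. In *Dbx2*-NSPCs it was at 69.35, 77.70, 91.83, 94.72, 128.47, 154.38, 114.67 and 120.20 CPM. All 8 *Dbx2*-NSPC samples were above all 8 *GFP*-NSPC samples, and 52.96 CPM lay between the highest control and the lowest *Dbx2*-NSPC sample. The means were 7.65 ± 5.11 and 106 ± 28.3 CPM (SD, n = 8 each), a 13.9-fold ratio, and the difference of log2(CPM + 0.5) was 3.92 (SE 0.308). The counts behind these levels were 8 to 48 reads per control sample and 216 to 497 reads per *Dbx2*-NSPC sample. Same-numbered samples differed by 2.77 to 4.89 on the log2 scale. Among all tested genes, the groups did not overlap in 3.41%, and in 1.6% with *Dbx2*-NSPCs higher. *Slc24a3* was the only one of the 10 genes in which they did not.

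The 2 sodium-calcium exchangers of the group were close to the floor. *Slc8a1*, the plasma membrane exchanger known from heart muscle (ENSMUSG00000054640), had 5 reads in all *GFP*-NSPC samples together and 14 in all *Dbx2*-NSPC samples, and was at 0 to 0.65 and 0 to 1.55 CPM. *Slc8b1*, the sodium-calcium exchanger of mitochondria (ENSMUSG00000032754), had 11 and 31 reads. It was at 0 in *GFP*-NSPC replicates 1 to 4 and at 0.55, 1.23, 0.68 and 1.64 CPM in replicates 5 to 8, against 0, 1.52, 0, 1.08, 2.11, 1.86, 1.81 and 2.36 CPM in *Dbx2*-NSPCs. The groups overlapped, and at this depth the fitted log2 difference of *Slc8b1* ran from 0.39 to 1.47 over the alternatives, so no fold is given. *Slc8a1* did not pass the filter, which asked for a level above 1 CPM in 4 or more of the 16 samples.

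**Figure D1:**
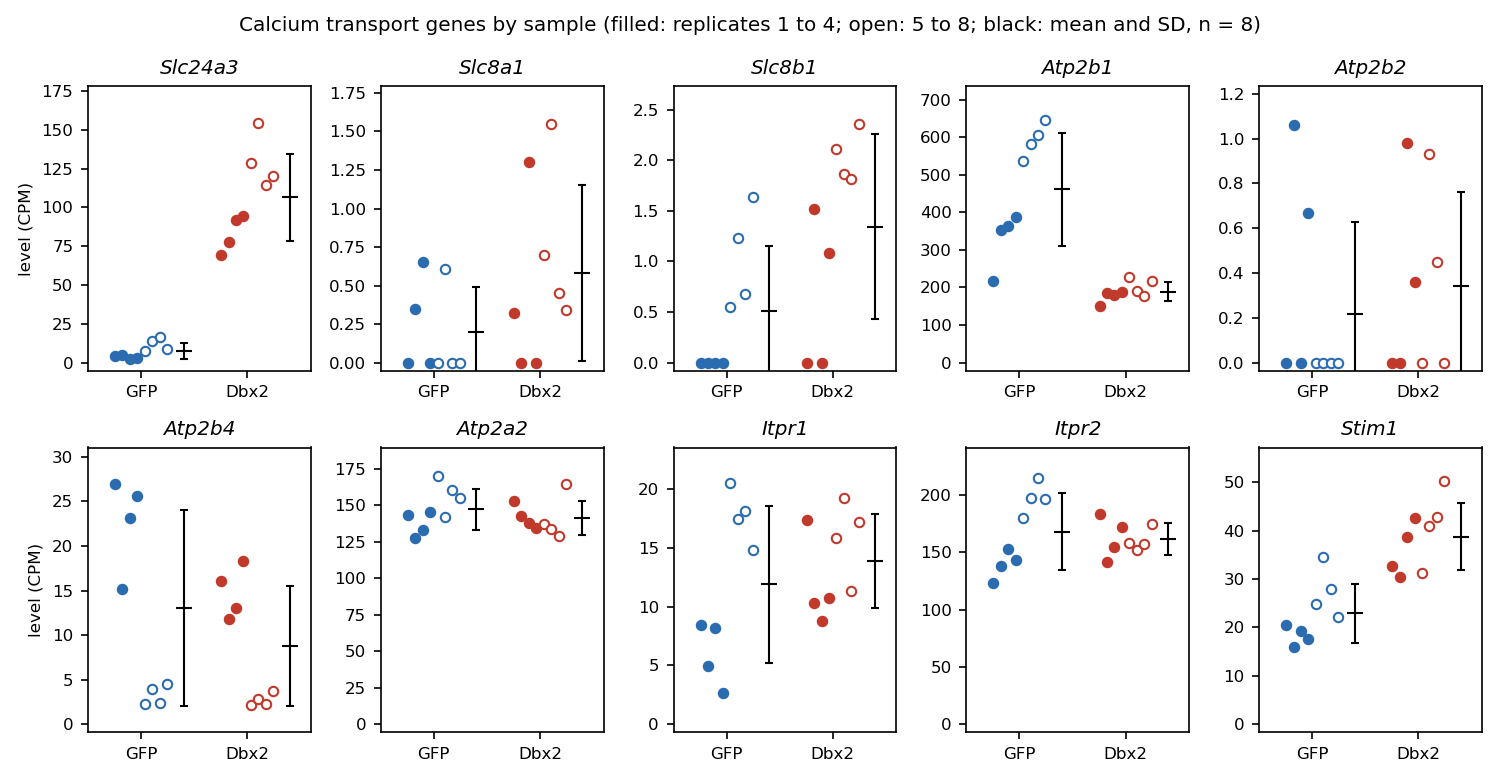
Level of each of the 10 calcium transport genes in CPM (linear axis, from 0) in *GFP*-NSPCs (blue) and *Dbx2*-NSPCs (red). Each point is a sample, filled for replicates 1 to 4 and open for 5 to 8, and the black bar is the mean with the SD over 8 samples, cut at the lower edge of the panel where it would go below 0. *Slc24a3* has no overlap between the groups, *Atp2b1* overlaps through 1 control sample, and *Atp2b4* separates replicates 1 to 4 from 5 to 8 in both groups.

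Of the plasma membrane calcium pumps, which use ATP to push calcium out of the cell, *Atp2b1* had the highest counts and the widest contrast. This gene (ENSMUSG00000019943; chromosome 10, 98914406 to 99026143, plus strand) encodes PMCA1, the pump that most cell types use. In *GFP*-NSPCs it was at 218.35, 352.00, 363.96, 387.56, 536.39, 581.24, 604.47 and 644.42 CPM, and in *Dbx2*-NSPCs at 149.62, 184.23, 179.42, 188.73, 226.68, 191.03, 176.52 and 217.44 CPM. Only *GFP*-NSPC replicate 1 lay within the range of the *Dbx2*-NSPCs, and the other 7 controls were above it. The means were 461 ± 151 and 189 ± 24.1 CPM, 2.44-fold lower in *Dbx2*-NSPCs, with a log2 difference of -1.21 (SE 0.177). It was lower at all 8 replicate numbers, by -1.77 to -0.54 on the log2 scale.

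*Atp2b4*, which encodes PMCA4 (ENSMUSG00000026463), varied more between replicates than between transgenes. It was at 26.99, 15.17, 23.13 and 25.66 CPM in *GFP*-NSPC replicates 1 to 4 but at 2.22, 3.99, 2.39 and 4.52 CPM in replicates 5 to 8. In *Dbx2*-NSPCs it was at 16.05, 11.84, 13.03 and 18.30 CPM and then at 2.11, 2.80, 2.26 and 3.71 CPM. The level in replicates 1 to 4 was 6.93-fold that in 5 to 8 in *GFP*-NSPCs and 5.44-fold in *Dbx2*-NSPCs, with no overlap. The log2 difference between the transgenes was -0.40 with an SE of 0.590, and the SE was 0.167 once same-numbered samples were paired in a replicate block. All 8 same-numbered differences were below 0, from -0.80 to -0.06. *Atp2b2*, the PMCA2 pump of neurons and sensory hair cells (ENSMUSG00000030302), had 5 and 8 reads in all, was above 1 CPM in 1 sample and did not pass the filter.

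*Atp2a2* encodes SERCA2, the pump that refills the ER (ENSMUSG00000029467). It was at 127.68 CPM in the lowest, 144.19 CPM in the median and 170.12 CPM in the highest *GFP*-NSPC sample, against 128.66, 137.495 and 164.43 CPM in *Dbx2*-NSPCs. The ranges lay almost on each other. The means were 147 ± 14.0 and 141 ± 11.7 CPM, with a log2 difference of -0.05 (SE 0.075). This gene varied least of the 8 that passed the filter, with an SD within groups of 0.126 on the log2 scale, against 1.35 for *Atp2b4*.

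The IP3 receptors are the channels through which the ER releases calcium when IP3 binds. *Itpr1* (ENSMUSG00000030102) was at 8.46, 4.94, 8.15, 2.67, 20.50, 17.48, 18.10 and 14.80 CPM in *GFP*-NSPCs and at 17.34, 10.32, 8.79, 10.76, 15.84, 19.26, 11.29 and 17.22 CPM in *Dbx2*-NSPCs. The 4 lowest controls were replicates 1 to 4, and the groups overlapped over nearly the whole range. The log2 difference was 0.41 (SE 0.336). *Itpr2* (ENSMUSG00000030287) was at 122.87, 137.91, 152.49, 142.96, 180.09, 196.92, 214.81 and 196.16 CPM in *GFP*-NSPCs and at 183.65, 141.43, 154.67, 172.23, 158.04, 152.20, 157.56 and 174.22 CPM in *Dbx2*-NSPCs. The *Dbx2*-NSPC samples sat inside the range of the controls, and the log2 difference was -0.03 (SE 0.108).

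*Stim1* encodes the ER calcium sensor that opens Orai channels (ENSMUSG00000030987; chromosome 7, 102267806 to 102437319, plus strand). In *GFP*-NSPCs it was at 20.55, 15.87, 19.22, 17.66, 24.94, 34.66, 28.00 and 22.21 CPM, and in *Dbx2*-NSPCs at 32.75, 30.35, 38.75, 42.70, 31.33, 41.00, 42.89 and 50.31 CPM. Only *GFP*-NSPC replicate 6 reached into the range of the *Dbx2*-NSPCs. The means were 22.9 ± 6.15 and 38.8 ± 6.90 CPM, a 1.69-fold ratio with a log2 difference of 0.77 (SE 0.154), and it was higher at all 8 replicate numbers, by 0.24 to 1.25.

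In the fit over all 12533 tested genes, 15.8% passed an adjusted p of 0.05 between the transgenes (limma, Benjamini-Hochberg), 8.03% higher and 7.78% lower in *Dbx2*-NSPCs. Of the 10 calcium transport genes 8 were tested and 3 passed, *Slc24a3* and *Stim1* higher and *Atp2b1* lower, and the same number passed with the replicate block, where 21.7% of all tested genes did, a count that the choice of the genes used and from which nothing is read.

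Whether the transgene contrast differed between replicates 1 to 4 and 5 to 8 was not used in choosing the genes, and it was tested as an interaction. This division of the samples came from earlier results of these data and not from the labels, and cell line and time of culture cannot be told apart in it. Among all tested genes, 9.44% passed for this interaction. *Atp2b1* passed, with a difference between the log2 contrasts, 5 to 8 minus 1 to 4, of -0.66 (SE 0.190; limma adjusted p = 0.0250). In replicates 1 to 4 its level was 330 ± 76.2 CPM in the controls against 176 ± 17.7 CPM in *Dbx2*-NSPCs, 1.88-fold lower, and in replicates 5 to 8 at 592 ± 45.1 and 203 ± 23.2 CPM, 2.92-fold lower (SD, n = 4 each). The control level thus differed more between the sets of replicates, 1.79-fold, than the level in *Dbx2*-NSPCs, 1.16-fold. The alternatives gave limma adjusted p values of 0.0124 to 0.0670, above the threshold without *GFP*-NSPC replicate 8 (0.0548), *Dbx2*-NSPC replicate 6 (0.0540) or replicate 7 (0.0670), or without the filter (0.0513).

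*Itpr2* also passed for the interaction, at -0.52 (SE 0.141; limma adjusted p = 0.0173). Over the alternatives in limma, edgeR and DESeq2 its adjusted p ran from 0.00557 to 0.0469. Its level was 139 ± 12.4 CPM in the controls against 163 ± 18.7 CPM in *Dbx2*-NSPCs in replicates 1 to 4, a log2 difference of 0.23, but at 197 ± 14.2 and 161 ± 9.52 CPM in replicates 5 to 8, a log2 difference of -0.29. The near-zero contrast over all samples was therefore the mean of contrasts of opposite sign. *Itpr1* had the same order of signs, 0.98 (SE 0.355) and -0.17 (SE 0.199), but its interaction of -1.15 (SE 0.407) did not pass (limma adjusted p = 0.0802, from 0.0337 to 0.178), except without *GFP*-NSPC replicate 1 or 3.

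For *Slc24a3* the ratio of means was 22.9-fold in replicates 1 to 4 and 11.1-fold in 5 to 8. Its levels were 3.65 ± 1.051 and 83.4 ± 11.96 CPM in the former and 11.6 ± 4.13 and 129 ± 17.6 CPM in the latter. The interaction was -0.89 (SE 0.302) and did not pass in limma (adjusted p = 0.0658). Over the alternatives in limma, edgeR and DESeq2 its adjusted p ran from 0.0134 to 0.167. The interaction passed in edgeR (adjusted p = 0.0243) and DESeq2 (adjusted p = 0.0134) on the recovered reads, and in limma without *GFP*-NSPC replicate 2, 5 or 8 or *Dbx2*-NSPC replicate 1. *Stim1* was 1.97-fold higher in replicates 1 to 4 and 1.51-fold in 5 to 8, with an interaction of -0.37 (SE 0.244; limma adjusted p = 0.410). For *Atp2b4* the interaction was 0.38 (SE 0.394; limma adjusted p = 0.638), and for *Atp2a2* it was -0.20 (SE 0.137; limma adjusted p = 0.422). *Slc8b1*, at 0 in 4 controls, had an adjusted p of 0.942 in limma.

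**Figure D2:**
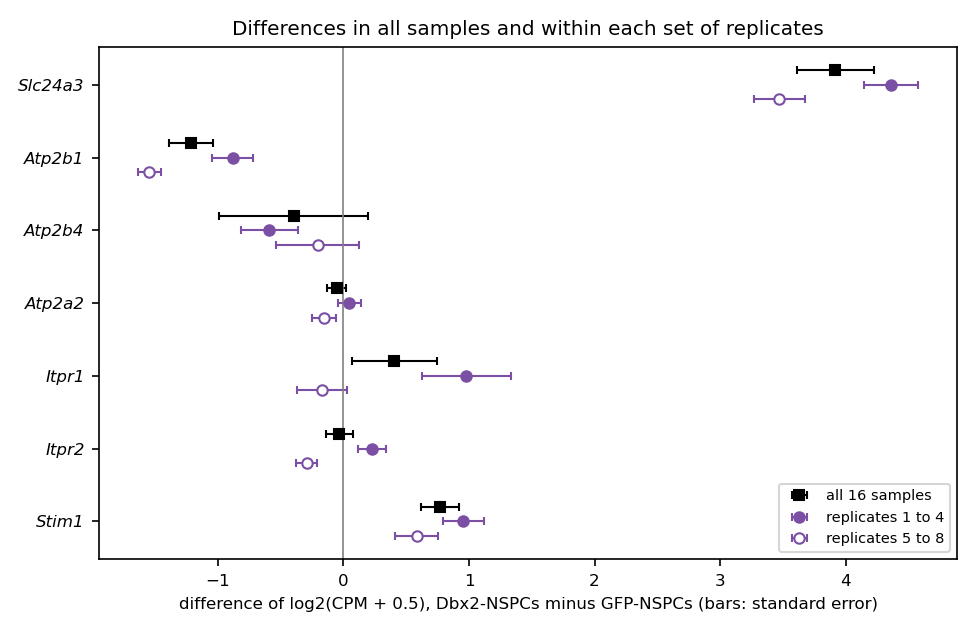
Difference of log2(CPM + 0.5), *Dbx2*-NSPCs minus *GFP*-NSPCs, for the 7 calcium transport genes with more than 3 reads in every sample, over all 16 samples (black squares) and within replicates 1 to 4 (filled circles) and 5 to 8 (open circles), with standard errors from limma. *Slc24a3*, *Stim1* and *Atp2b1* keep their side of 0 in both sets, *Atp2b1* is at -0.88 and -1.55, and *Itpr1*, *Itpr2* and *Atp2a2* cross 0.

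The level of the genes themselves also differed between these sets of replicates. In *GFP*-NSPCs, replicates 1 to 4 and 5 to 8 did not overlap in 7 of the 8 tested calcium transport genes, where 28.9% of all tested genes behaved so. Of these, 6 were higher in 5 to 8, and *Atp2b4* was lower. *Atp2a2* was the exception. In *Dbx2*-NSPCs the sets did not overlap in 3 of the 8, *Slc24a3*, *Slc8b1* and *Atp2b4*, against 19.8% of all tested genes. Those 3 had the same direction in both groups, which held for 8.22% of all tested genes. For *Slc8b1*, near the floor, these counts rest on few reads, 0 in *GFP*-NSPC replicates 1 to 4 and 1 to 4 in 5 to 8. In *Dbx2*-NSPCs replicate 2 held 5 reads and replicate 7 held 4, so only the scaling to CPM set them apart. *Slc24a3* was 3.20-fold higher in 5 to 8 in *GFP*-NSPCs and 1.55-fold in *Dbx2*-NSPCs.

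The genes nearest to each calcium transport gene were compared, 5 tested genes on each side, which the choice of members did not use. Of these 100 genes 25% passed the threshold between the transgenes, 14 higher and 11 lower, beside 15.8% of all tested genes. Around *Atp2b1*, in 5006.5 kb, 6 of 10 passed and all 6 were lower in *Dbx2*-NSPCs, with a median log2 difference of -0.61 over the 10. They were *Kitl*, which encodes the ligand of the KIT receptor (302 to 146 CPM), the centrosomal *Poc1b* (121 to 55.1 CPM), the endosomal *Eea1* (161 to 92.2 CPM), *Btg1*, *Ube2n* and *Mrpl42*. Around *Slc24a3*, in 1697.3 kb, 1 of 10 passed, and the median was -0.05. The gene that passed, the transcription factor *Insm1*, fell by 2.07 on the log2 scale (limma adjusted p = 9.13e-04). *Insm1* was low, with means of 3.10 CPM in *GFP*-NSPCs and 0.465 CPM, under the floor, in *Dbx2*-NSPCs. Around *Stim1* 2 of 10 passed, both higher, *Trim12a* (0.706 to 2.49 CPM) and *Trim12c* (2.24 to 8.27 CPM). The mean of *Trim12a* in *GFP*-NSPCs was under the floor. Around *Atp2a2* 0 of 10 passed in limma, where 3 had an unadjusted p under 0.05, and 1 passed in edgeR and in DESeq2. These neighbours were named after their values had been seen.

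Other genes of calcium handling were taken from a list by function, of which 130 were in the table and 100 were tested. Of these 24 rose and 4 fell in *Dbx2*-NSPCs and 72 did not pass, beside 8.03% and 7.78% of all tested genes. The median log2 difference was 0.17, against -0.02 over all tested genes, and 64 of the 100 were above 0, against 47.3% of all. Among the 64 genes that averaged 10 CPM or more, 15 rose and 2 fell, beside 7.94% and 9.55% of all genes of that level. With the replicate block 31 rose and 5 fell, beside 10.8% and 10.9% of all tested genes in that fit. Of the 100 genes, 14 passed for the interaction, beside 9.44% of all tested genes. The counts by function below stand beside these same shares of all tested genes. Of the genes counted as risen, *Cacna1d* and *Plcg2* were above 1 CPM in no *GFP*-NSPC sample, so they passed the filter through the group where they were high, and 1 further gene was above it in no *Dbx2*-NSPC sample. Other called genes also needed the group where they were high to pass. Examples are *Ryr3* and *Cacna1g*, above 1 CPM in 2 *GFP*-NSPC and 8 *Dbx2*-NSPC samples, and *Slc8a2*, which fell, in 6 and 1.

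Among exchangers and pumps of the same families, only *Slc8a2* passed the test between the transgenes. This plasma membrane sodium-calcium exchanger, known from neurons, was at 0 to 5.54 CPM (median 3.375) in *GFP*-NSPCs and at 0 to 2.15 CPM (median 0.325) in *Dbx2*-NSPCs, and the groups overlapped. The means were 3.28 ± 2.0 and 0.551 ± 0.732 CPM, with a log2 difference of -1.77 (SE 0.498; limma adjusted p = 0.0202), lower at 7 of 8 replicate numbers. *Slc8a2* was above 1 CPM in 6 *GFP*-NSPC samples and 1 *Dbx2*-NSPC sample, so it passed the filter through the controls. *Slc8a3* was at 6.03 ± 1.84 and 3.95 ± 1.03 CPM (log2 difference -0.53, SE 0.229; limma adjusted p = 0.129). *Slc24a2*, the other tested exchanger that carries potassium, was at 1.27 ± 0.928 and 1.67 ± 0.672 CPM (log2 difference 0.44, SE 0.364; limma adjusted p = 0.457). *Atp2c1*, the Golgi calcium pump, was at 41.0 ± 8.55 and 37.3 ± 5.53 CPM (log2 difference -0.13, SE 0.132; limma adjusted p = 0.572). Its end overlaps *Aste1* on the other strand, whose reads may be counted with it.

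**Figure D3:**
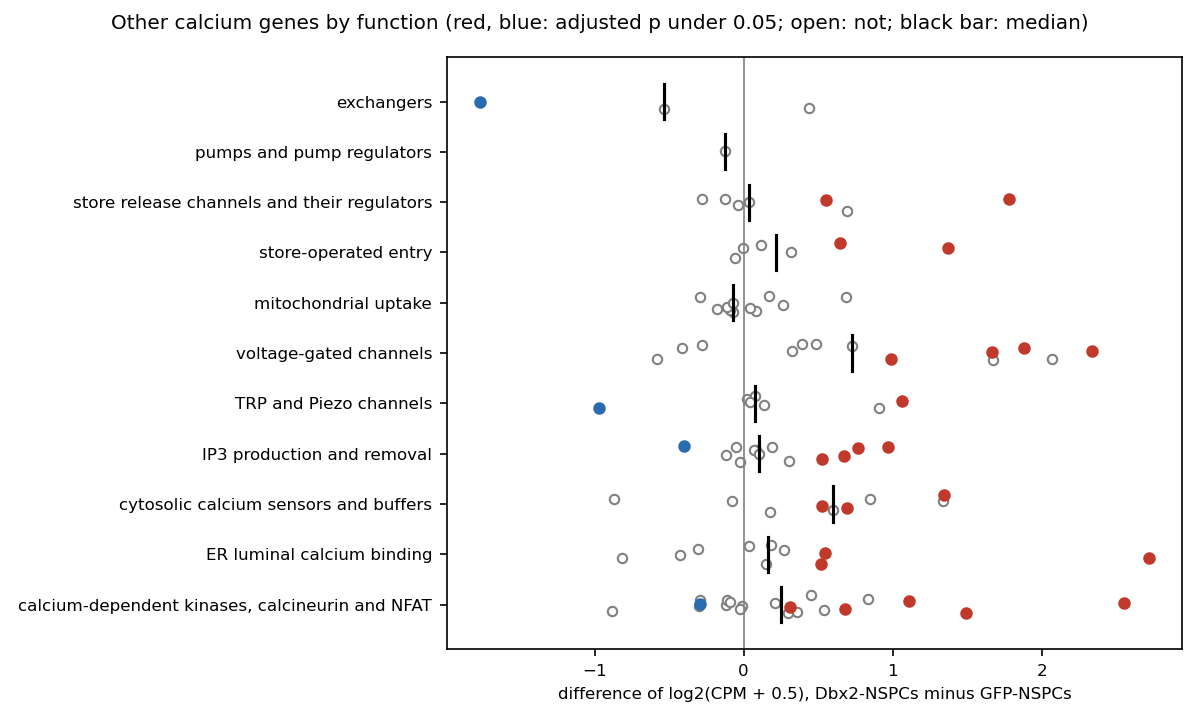
Difference of log2(CPM + 0.5), *Dbx2*-NSPCs minus *GFP*-NSPCs, for the 100 tested calcium genes outside the transport group, by function; each point is a gene, red or blue where limma's adjusted p was under 0.05 and open otherwise, and the black bar is the median of the row. The median is 0.73 for the voltage-gated channels and -0.07 for mitochondrial uptake, where 0 of 11 genes passed.

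Of the partners of *Stim1* in store-operated entry, 2 of 6 rose, and 1 in edgeR. These were the channel genes *Orai1* (29.7 to 46.3 CPM; log2 difference 0.65, limma adjusted p = 0.0119) and *Orai2* (2.12 to 5.28 CPM; 1.37, limma adjusted p = 0.0360). The call of *Orai2* held in 6 of 16 fits that left out a sample, and that of *Orai1* in all 16. With the replicate block 3 of 6 rose. Of 7 tested store release channels and regulators beside the IP3 receptors, 2 rose, the ryanodine receptor *Ryr3* (0.659 to 3.81 CPM) and the endolysosomal channel *Tpcn1* (30.0 to 45.2 CPM), which lies among the nearest genes to *Slc8b1*. The call of *Tpcn1* held in 8 of 16 fits that left out a sample, and that of *Ryr3* in all 16. *Ryr3* was above 1 CPM in only 2 controls, so it needed the *Dbx2*-NSPC samples to pass the filter. Of 11 genes of mitochondrial uptake 0 passed in either direction in limma, edgeR or DESeq2, 0 had an unadjusted p under 0.05 in any of them, and 1 fell in limma with the replicate block.

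Of 13 voltage-gated channel subunits 4 rose, *Cacna1a*, *Cacna1d*, *Cacna1g* and *Cacnb2*, and 7 did with the replicate block, *Cacna2d1* and *Cacna2d3* among them. *Cacna1d* was above 1 CPM in 0 control and 7 *Dbx2*-NSPC samples and could pass the filter through the latter alone. *Cacna1g*, above 1 CPM in 2 control and 8 *Dbx2*-NSPC samples, also needed the latter to pass. No subunit fell at an adjusted p of 0.05 in limma, edgeR or DESeq2. *Cacna1a*, which encodes the pore of P/Q-type channels, was at 11.68, 15.25 and 18.84 CPM in the lowest, median and highest control and at 15.96, 33.37 and 45.66 CPM in *Dbx2*-NSPCs. The groups overlapped only at the low end of the *Dbx2*-NSPCs. Its log2 difference was 0.99 (SE 0.204; limma adjusted p = 0.00231), and it was higher at 8 of 8 replicate numbers. The contrast was 0.58 in replicates 1 to 4 and 1.40 in 5 to 8, and the interaction of 0.82 (SE 0.251) passed (limma adjusted p = 0.0379), as it did in 6 of 16 fits that left out a sample. In all 5 of the 13 subunits passed for the interaction (38.5%, beside 9.44% of all tested genes), *Cacna1a*, *Cacna1h*, *Cacna2d1*, *Cacna2d3* and *Cacnb2*. The largest was that of *Cacna2d1*, at -4.32 (limma adjusted p = 6.68e-09).

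Of the 7 tested TRP and Piezo channels *Piezo2*, a channel opened by stretch of the membrane, rose from 10.4 ± 2.84 to 23.6 ± 10.2 CPM (log2 difference 1.07, SE 0.248; limma adjusted p = 0.00595). The contrast of *Piezo2* was 1.56 in replicates 1 to 4 and 0.57 in 5 to 8, where it did not pass (limma adjusted p = 0.139). Its interaction did not pass (limma adjusted p = 0.103). With the replicate block 2 rose. Of 13 enzymes that make or remove IP3, 4 rose (*Plcb1*, *Plcg2*, *Plcd4*, *Itpkb*) and *Plce1* fell. With the replicate block 3 rose, without *Plcg2* (limma adjusted p = 0.0633), which was above 1 CPM in no control. Among the fits that left out 1 of the 16 samples, the call held in 5 for *Plcg2*, 9 for *Plcb1* and 12 for *Itpkb*. The phospholipase gene *Plcd4* was at 89.98, 93.745 and 124.49 CPM in the lowest, median and highest control and at 153.76, 160.685 and 193.40 CPM in *Dbx2*-NSPCs. The groups did not overlap, and the log2 difference was 0.77 (SE 0.078; limma adjusted p = 1.77e-06). Its end overlaps *Zfp142* on the other strand. *Plce1* was at 67.1 ± 16.8 and 49.7 ± 5.46 CPM (log2 difference -0.40, SE 0.127; limma adjusted p = 0.0368), a call that held in 8 of 16 fits that left out a sample. Its contrast was -0.11 in replicates 1 to 4, where it did not pass (limma adjusted p = 0.604), and -0.69 in 5 to 8. The interaction did not pass (limma adjusted p = 0.0804).

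Of 9 cytosolic calcium sensors and buffers 3 rose, *Hpcal1* and *Pvalb* among them, and 5 did with the replicate block. *Pvalb* (0.430 to 2.004 CPM) kept its call in 5 of 16 fits that left out a sample. *Hpcal1*, a neuronal calcium sensor, was at 74.1 ± 21.2 and 118 ± 22.0 CPM (log2 difference 0.70, SE 0.165; limma adjusted p = 0.00656). Of 10 calcium-binding proteins of the ER lumen 3 rose, *Casq2*, *Rcn1* and *Nucb1*, and 4 did with the replicate block. *Casq2* encodes calsequestrin 2, which buffers calcium inside the ER and is known from heart muscle. It was at 0.71, 2.0 and 3.37 CPM in the lowest, median and highest control and at 9.69, 15.64 and 19.71 CPM in *Dbx2*-NSPCs. The groups did not overlap, and the log2 difference was 2.72 (SE 0.246; limma adjusted p = 4.85e-07).

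Of 20 calcium-dependent kinases, calcineurin subunits and partners and NFAT factors, 5 rose (*Camk1*, *Camk2a*, *Ppp3ca*, *Rcan2*, *Rcan3*) and *Ppp3cb* fell. *Camk2a*, a calmodulin-dependent kinase subunit known from neurons, was at 0.71, 3.175 and 8.87 CPM in the lowest, median and highest control and at 10.75, 19.765 and 32.05 CPM in *Dbx2*-NSPCs. The groups did not overlap, and the log2 difference was 2.55 (SE 0.383; limma adjusted p = 1.28e-04). *Camk1* was at 15.31, 27.075 and 39.10 CPM and at 48.48, 75.785 and 116.51 CPM, again without overlap (log2 difference 1.49, SE 0.207; limma adjusted p = 5.22e-05). Its contrast was 0.98 in replicates 1 to 4 and 2.002 in 5 to 8, an interaction of 1.02 (limma adjusted p = 0.0348) that held in 7 of 16 fits that left out a sample, and its end overlaps *Ogg1* on the other strand. *Rcan3*, a regulator of calcineurin, rose from 15.5 ± 4.70 to 24.6 ± 5.50 CPM (log2 difference 0.68, SE 0.193; limma adjusted p = 0.0208), and was higher at 6 of 8 replicate numbers. Its contrast was 1.08 in replicates 1 to 4 and 0.29 in 5 to 8, where it did not pass (limma adjusted p = 0.341). The interaction did not pass (limma adjusted p = 0.150). The catalytic subunit *Ppp3cb* was at 67.7 ± 8.84 and 55.0 ± 5.56 CPM (log2 difference -0.29, SE 0.094; limma adjusted p = 0.0400), lower at 8 of 8 replicate numbers, a call that held in 7 of 16 fits that left out a sample and was lost in edgeR and DESeq2. The other catalytic subunit, *Ppp3ca*, rose by 0.31 on the log2 scale (limma adjusted p = 0.00946).

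**Figure D4:**
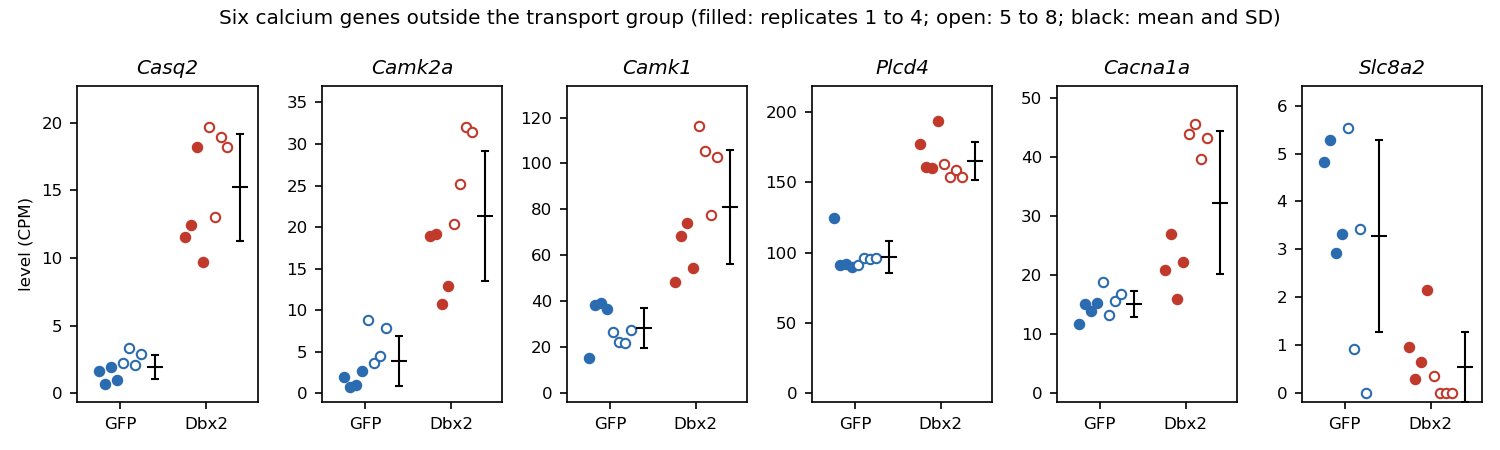
Level in CPM (linear axes, from 0) of 6 calcium genes outside the transport group in *GFP*-NSPCs (blue) and *Dbx2*-NSPCs (red). Each point is a sample, filled for replicates 1 to 4 and open for 5 to 8, and the black bar is the mean with the SD over 8 samples, cut at the lower edge of the panel where it would go below 0. *Casq2*, *Camk2a*, *Camk1* and *Plcd4* show no overlap between the groups, while *Cacna1a* and *Slc8a2* overlap.

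The profile of *Slc24a3* over the 16 samples was compared with that of every other tested gene, by the mean absolute difference between log2 values that had each been centred on their mean. The 5 most like genes were *Maml3*, a coactivator of Notch signalling (0.55), *Tmem132b* (0.58), the membrane-bound metalloproteinase gene *Mmp16* (0.62), *Pcolce*, which promotes the processing of procollagen (0.64), and the taurine transporter gene *Slc6a6* (0.64). All 5 were higher in *Dbx2*-NSPCs, as the measure demands. *Slc6a6* was at 0.35 to 7.97 CPM and 11.12 to 88.35 CPM, and *Pcolce* at 0 to 6.58 CPM and 12.14 to 38.72 CPM, so that the groups of either gene did not overlap. *Maml3* was at 0 to 1.71 CPM in *GFP*-NSPCs and 7.06 to 40.18 CPM in *Dbx2*-NSPCs.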

How the data were processed

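RNA from 8 *Dbx2*-NSPC and 8 *GFP*-NSPC cultures was sequenced from libraries of 100 ng of total RNA made with the QuantSeq kit, whose reads lie at the poly-A end. The authors trimmed the reads, aligned them with STAR 2.5.0a to GRCm38 and deposited 1 table of CPM; the counting tool and strand are not given in the sources used here, so reads of overlapping genes may be mixed. All 16 columns were used and 0 were left out. Each column summed to 999484.7 to 999613.8 CPM. The value of 1 read was found from the steps between low values, and within 0.1 reads 100% of the values were whole reads.

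The 12533 genes above 1 CPM in 4 or more of the 16 samples entered a limma fit (version 3.58.1, R 4.3.3; lmFit, then eBayes with trend) of log2(CPM + 0.5), with the Benjamini-Hochberg adjustment and a threshold of 0.05. Fold changes on this scale understate those of low genes. The methods of the study fitted the cell line, which the labels do not give. edgeR 4.0.16 and DESeq2 1.42.0 were run on the recovered reads as alternatives, with pseudocounts of 0.1 and 2, other filters, another scaling, the replicate block, sets of replicates and the omission of each sample. Each tool was tested on simulated data. Same-numbered samples deviated together over all samples (correlations of 0.152 to 0.303 over 8 pairs from the numbers in the labels). Within replicates 1 to 4 and 5 to 8 they did so little (-0.00741 to 0.119). The same-numbered sample was the closest of 8 in 4 pairs. The labels do not say that equal numbers belong together, so the block is given only beside counts that it changes. Gene positions came from GENCODE M21. The members and the lists were chosen with earlier results of these data known. Named beside the 10 members were *Dbx2*, tested exchangers and pumps of the same families, of the other lists the 8 largest increases and decreases that averaged 10 CPM or more in either group (only 2 decreases were eligible), and the 5 genes most like *Slc24a3*; others, named where a count is small, were chosen after their values were seen. Results of some genes counted in the lists are not reported here by name.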

Additional observations from a re-analysis of the deposited data

Results flagged for a closer look

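Of 50 groups of 8 samples examined, 3 held a sample far from the rest, where chance gives about 1 in 20. *Dbx2* was at 232.13 CPM in *Dbx2*-NSPC replicate 1 and at 114 to 168.44 CPM in the other 7 samples of its group. *Slc8a2* was at 2.15 CPM in *Dbx2*-NSPC replicate 4 and at 0 to 0.96 CPM in the others. *Plcd4* was at 124.49 CPM in *GFP*-NSPC replicate 1 and at 89.98 to 96.31 CPM in the others, and this sample also had the lowest *Atp2b1* level of the controls, 218.35 CPM.

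For 5 of the transport genes and the genes named by the rule for names the contrast between the transgenes differed between replicates 1 to 4 and 5 to 8, by limma's interaction test; other genes named for a count or as markers passed it too. The difference of the log2 contrasts, 5 to 8 minus 1 to 4, was -0.66 for *Atp2b1*, -0.52 for *Itpr2*, 1.45 for *Dbx2* (limma adjusted p = 1.04e-04), 1.02 for *Camk1* and 0.82 for *Cacna1a*. *Dbx2* was at 120 ± 35.6 CPM in *GFP*-NSPC replicates 1 to 4 and at 34.0 ± 3.96 CPM in replicates 5 to 8 (SD, n = 4 each). In *Dbx2*-NSPCs it was at 173 ± 41.4 and 136 ± 16.9 CPM. The log2 difference of *Dbx2* was thus 0.54 in replicates 1 to 4, short of the threshold (limma adjusted p = 0.0891), and 1.99 in 5 to 8. The part of the *Dbx2* level in the other differences was not tested.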

How the results depend on the processing

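None of the counts, the transport genes, *Dbx2* or the calcium genes named by the rule turned direction as a called value. Other genes did between the limma fits of replicates 1 to 4 alone and 5 to 8 alone. *Plcb3* was at 0.94 and -0.56 (limma adjusted p = 0.00497 and 0.0241). *Piezo1* was at 1.02 and -0.75 (limma adjusted p = 0.00944 and 0.00501), and *Dcx* and *Rbfox3* turned the other way. Of 223 values of the log2 difference of a tested transport gene under the 28 alternatives, 221 moved by less than the spread between replicates; the others were those of *Itpr2*, 0.23 in replicates 1 to 4 alone and -0.29 in 5 to 8 alone. With a mean of at least 10 CPM, 15 genes of the wider calcium list rose and 2 fell, and 2 fell in edgeR and in DESeq2 alike. Over all tested genes, 1533 fell with the set of replicates as a covariate and 1467 fell in replicates 5 to 8 alone, against 975, and 1572 rose, against 1007, in edgeR with that covariate, an alternative chosen after seeing the data. Without the filter 1 transport gene passed for the interaction, against 2.

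Leaving out each of the 16 samples in turn gave 868 to 1082 genes that rose, 816 to 1128 that fell and 1031 to 1307 with an interaction. In the wider list 18 to 26 rose, 1 to 4 fell and 10 to 15 had an interaction. It was 1 without *GFP*-NSPC replicate 2 or *Dbx2*-NSPC replicate 3 or 7 that fell, and 2 without *GFP*-NSPC replicate 3, 6 or 8 or *Dbx2*-NSPC replicate 4, 6 or 8. Of the transport genes 1 to 3 passed for the interaction, 1 without *Dbx2*-NSPC replicate 6 or 7.

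With the replicate block 2723 genes passed, against 1982, and 31 and 5 of the wider list. It left 3 transport genes past the threshold and changed no call of the genes named by the rule for names. Of others, *Plcg2* lost its call, and *Cacna2d1*, *Cacna2d3*, *Sox2* and *Foxj1* gained one. The other limits are depth, since *Slc8a1*, *Slc8b1* and *Atp2b2* lay at or under the floor of 3 reads in most samples, and reads at the poly-A end, which do not show splice forms.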
